A study of Homo sapiens with 4 samples.

Results

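ATP-binding cassette (ABC) transporters are membrane pumps that spend ATP to move lipids, bile components, drugs, porphyrins, peptides and fatty acids across membranes. They share a nucleotide-binding domain and fall into the subfamilies A to G, of which E and F have no membrane span and act on ribosomes and translation instead. In liver, canalicular members load bile, basolateral members return conjugates to blood, and ABCA1 starts the formation of high-density lipoprotein. The genes were chosen by symbol, ABC followed by a letter A to G and a digit, with the counted mRNA row of highest total for each gene. This gave 35 of the 12153 genes in the table, 11 in subfamily A, 5 in B, 6 in C, 4 in D, 1 in E, 3 in F and 5 in G.

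RNA came from PLC/PRF/5 cells, an established human hepatocellular carcinoma line. There were 2 libraries of cells with lentiviral knockdown of USP22 (the shUSP22 cells) and 2 of control cells (NC). USP22 is the ubiquitin protease of the SAGA coactivator complex. Both groups had been held at 1% oxygen with 5% carbon dioxide for 48 h in high-glucose medium, so no normoxic level enters the comparison. The labels do not say whether the 2 libraries of a group were separate cultures, nor how many hairpins or clones were used, and p-values measure only the spread between these libraries, which may be technical. The treatment text of the labels is the same for all 4 libraries. Values below are in CPM, the count relative to the TMM-normalised library size, with 2 libraries per group throughout.

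Library totals were 15027209 and 17194929 counts in knockdown and 15621574 and 16536639 in control cells. The USP22 row had 359 and 447 CPM in knockdown and 2934 and 2571 CPM in control cells, a log2 fold change of −2.77 ± 0.17 (SE). Of the 10 hepatocyte markers all were counted, and their summed level was 19060 and 21330 CPM in knockdown and 19340 and 20650 CPM in control cells. TF, for transferrin, made up most of it, with 14050 and 15340 CPM in knockdown and 16350 and 17010 CPM in control cells, and 5 of the 10 markers were called higher. Of 12 markers of other cell types 8 were counted, and they summed to 70.5 to 79.5 CPM in knockdown and 74.7 to 84.6 CPM in control cells. VWF and LYVE1 were at 0 in knockdown replicate 1. In such bulk RNA, fewer cells that express a gene and less RNA per cell cannot be told apart.

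Of the 35 ABC genes, 31 passed the filter on low counts and were tested. Between USP22 knockdown and control, 4 rose (ABCA1, ABCC2, ABCC6 and ABCE1), 1 fell (ABCC1) and 26 did not pass an adjusted p of 0.05 in edgeR's quasi-likelihood test. The 5 calls are 16.1% of the ABC genes tested, 12.9% higher and 3.23% lower. Over all genes, with 1 row per gene, 20.1% of 10777 were called, 9.08% higher and 11.1% lower. Over all 12337 rows tested, the shares were 18.7% in either direction, 8.49% higher and 10.2% lower. The share of ABC genes called is thus near that of genes at large. The median log2 fold change of the tested ABC genes was 0.13, and that of all tested genes was −0.0045. Both knockdown libraries lay outside both control libraries for 18 ABC genes, 10 above and 8 below, and 13 overlapped. These 18 are 58.1% of the ABC genes tested, and over all genes 61.2% were separated in this way, 29.8% above and 31.4% below.

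**Figure D1:**
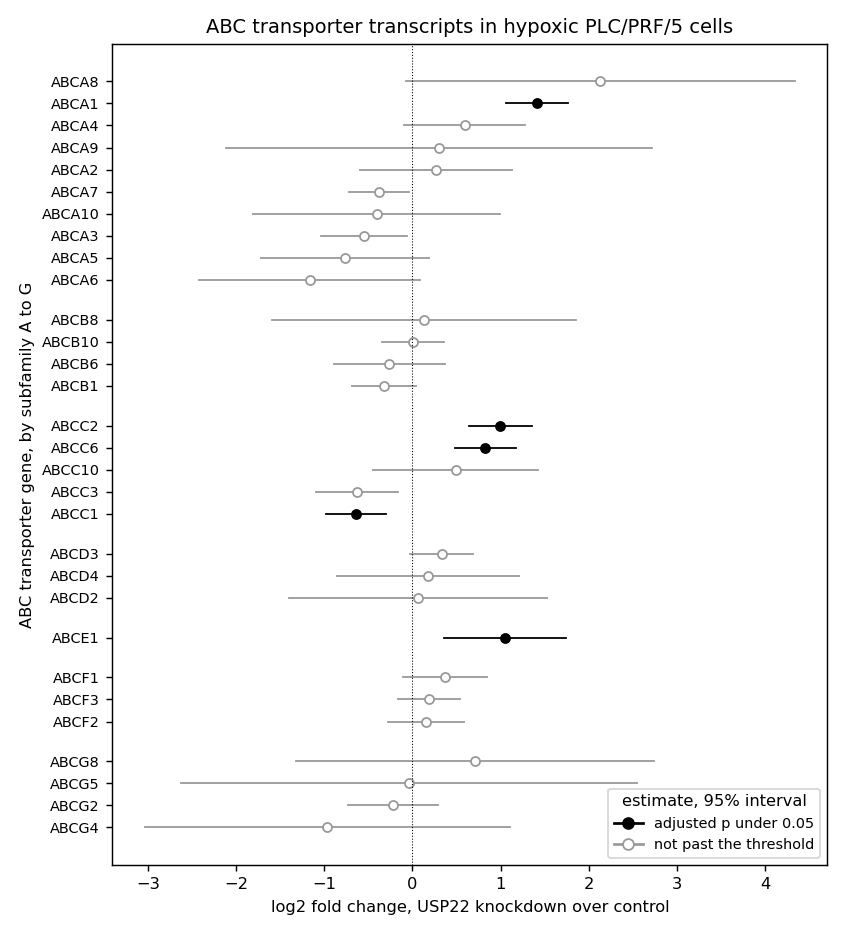
The plot shows the log2 fold change of the tested ABC genes reported here, USP22 knockdown over control, with its 95% interval from edgeR, by subfamily A to G from top to bottom. Filled points passed an adjusted p of 0.05: ABCA1, ABCC2, ABCC6 and ABCE1 lie to the right of 0 and ABCC1 to the left, and the widest intervals belong to rows with few counts such as ABCG5 and ABCA9.

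The windows of 250 bases before the RefSeq start of the 4 ABC genes that rose are shown because these genes share a direction and the cells were hypoxic. They come from RefSeq on GRCh38.p14, a different build from the hg19 named for the counts. Capitals mark ACGTG or GCGTG on either strand, the core of hypoxia response elements, which overlaps the E-box CACGTG.
ABCA1: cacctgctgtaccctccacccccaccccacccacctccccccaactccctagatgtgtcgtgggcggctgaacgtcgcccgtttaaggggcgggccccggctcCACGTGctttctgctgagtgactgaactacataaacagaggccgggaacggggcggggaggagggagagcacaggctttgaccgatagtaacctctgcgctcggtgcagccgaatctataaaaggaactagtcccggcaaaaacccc
ABCC2: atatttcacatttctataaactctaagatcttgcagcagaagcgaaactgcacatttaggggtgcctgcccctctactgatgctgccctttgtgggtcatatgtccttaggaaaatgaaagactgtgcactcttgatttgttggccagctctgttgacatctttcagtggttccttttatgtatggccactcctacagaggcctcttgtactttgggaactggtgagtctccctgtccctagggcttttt
ABCC6: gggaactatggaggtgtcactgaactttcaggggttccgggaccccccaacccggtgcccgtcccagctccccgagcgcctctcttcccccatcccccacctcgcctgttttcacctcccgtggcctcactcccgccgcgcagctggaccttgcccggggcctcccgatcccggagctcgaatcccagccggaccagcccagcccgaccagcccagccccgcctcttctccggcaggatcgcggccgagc
ABCE1: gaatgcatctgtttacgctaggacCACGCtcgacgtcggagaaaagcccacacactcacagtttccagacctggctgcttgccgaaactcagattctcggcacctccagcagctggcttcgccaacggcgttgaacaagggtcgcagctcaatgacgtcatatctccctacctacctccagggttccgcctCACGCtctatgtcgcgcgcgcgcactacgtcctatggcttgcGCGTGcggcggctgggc
The windows are chr9:104928156-104928405 (minus strand) for ABCA1, chr10:99782390-99782639 (plus strand) for ABCC2, chr16:16223495-16223744 (minus strand) for ABCC6 and chr4:145098061-145098310 (plus strand) for ABCE1. The core was found in ABCA1, as a palindromic CACGTG read on both strands, and at 3 places in ABCE1, and not in the windows of ABCC2 and ABCC6. Their GC content was 61.6% for ABCA1, 45.6% for ABCC2, 70.8% for ABCC6 and 60.0% for ABCE1. The core occurred in 43.2% of 35116 such windows of the RefSeq table and in 15 of 29 ABC genes with a window, 2 of the 4 that rose and 13 of the 22 that did not pass. The E-box occurred in 6.34% of all windows and in 4 of the 29. Of 7 motifs searched on both strands, the TATA box (TATAAA) was in ABCA1 and ABCC2 among the 4, in 5 of the 29 and in 10.7% of all windows. The Sp1 box (GGGCGG) was in 16 of the 29 and in 42.6% of all windows. The nuclear receptor site AGGTCA was in 1 of the 29 (12.1% of all), TGACNNNGC of antioxidant response elements in 5 (10.9%) and the HNF1 site GTTAAT in 0 (6.23%). A match describes letters only. ABCA4, ABCA8, ABCC1, ABCC3 and ABCG1 were among those with no window in the table used.

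Among lipid exporters, ABCA1 showed the clearest change. It hands cholesterol and phospholipid to apolipoprotein A-I. Its row NM_005502.3 had 457 and 399.8 CPM in knockdown cells, against 155 and 167 CPM in control cells. Both knockdown libraries were far above both control libraries. The means were 428 ± 40.4 CPM in knockdown and 161 ± 8.31 CPM in control cells (SD, n = 2 each), a 2.66-fold increase with a log2 fold change of 1.41 ± 0.16 (SE) and an adjusted p = 9.98e-05 by edgeR. Across 11 alternative settings the log2 fold change stayed between 1.35 and 1.51, past the threshold in 11 of 11. The gene lies on chromosome 9 and has 1 RefSeq mRNA accession, so its row holds no split between isoforms. It overlaps 3 genes in the RefSeq table, NIPSNAP3B among them, and whether their reads enter its row was not tested.

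None of the other tested members of subfamily A passed the test, and many were thinly counted. ABCA7, a phospholipid transporter related to ABCA1, had 230.4 and 205 CPM in knockdown and 293 and 275 CPM in control cells. Its groups did not overlap, but the log2 fold change of −0.38 ± 0.16 did not pass (adjusted p = 0.118 by edgeR), while the authors' deposited table gives it a q-value of 0.0231. ABCA3, which loads surfactant lipids in lung, had 41.6 and 49.2 CPM in knockdown and 80.3 and 52.8 CPM in control cells. The control libraries were far apart, and the log2 fold change of −0.55 ± 0.22 did not pass (adjusted p = 0.109). Without control replicate 1 the value was −0.21 (adjusted p = 0.729), without control replicate 2 it was −0.80 (adjusted p = 0.046), and without knockdown replicate 2 it was −0.67 (adjusted p = 0.0359). ABCA4, the retinoid transporter of photoreceptors, had 7.99 and 8.50 CPM in knockdown and 5.11 and 5.81 CPM in control cells (log2 fold change 0.59 ± 0.32, adjusted p = 0.221).

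A cluster of subfamily A genes on chromosome 17, ABCA5, ABCA6, ABCA8, ABCA9 and ABCA10, was near the limit of detection. Their rows held between 36 and 288 counts over all 4 libraries. ABCA8 had 20 and 25 counts in knockdown and 0 and 10 counts in control cells, and its log2 fold change of 2.13 ± 1.02 did not pass (adjusted p = 0.172). Without control replicate 2, which leaves a control at 0 counts, it was called with an adjusted p = 0.00512, and without control replicate 1 its log2 fold change was 1.16 (adjusted p = 0.481). ABCA6 had 13 and 28 counts in knockdown and 60 and 30 in control cells (−1.17 ± 0.58, adjusted p = 0.188). ABCA5 had 45 and 63 counts in knockdown and 126 and 54 in control cells, and its log2 fold change of −0.76 rested on control replicate 1. It was −1.24 (adjusted p = 0.0471) without control replicate 2 and −0.0009 (adjusted p = 0.999) without control replicate 1. ABCA9 and ABCA10 did not pass (adjusted p = 0.889 and 0.723). ABCA2, an endolysosomal lipid transporter, did not pass either (0.27 ± 0.40, adjusted p = 0.704), and ABCA13, with 20 counts in all, was not tested.

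The subfamily C, which holds the multidrug resistance-associated proteins, had members called in both directions. Of its 6 genes 5 were tested, and in all 5 the groups did not overlap, 3 with knockdown above and 2 below, where 61.2% of all genes were separated. ABCC2 (MRP2), the canalicular pump for bilirubin glucuronide and glutathione conjugates, had 1426 and 1647 CPM in knockdown cells, against 665 and 872 CPM in control cells. The knockdown libraries stood above both controls. The means were 1536 ± 157 CPM in knockdown and 769 ± 146 CPM in control cells (SD), a 2.00-fold increase (log2 fold change 1.00 ± 0.17, adjusted p = 0.00135 by edgeR). ABCC2 has 1 RefSeq mRNA accession and held 74553 counts, more than any other ABC gene.

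ABCC6, a hepatic transporter needed for ATP release and mutated in pseudoxanthoma elasticum, had 268 and 301 CPM in knockdown cells, against 161 and 160.5 CPM in control cells. The increase was 1.77-fold (log2 fold change 0.82 ± 0.16, adjusted p = 0.0033 by edgeR). It passed in 11 of 11 alternatives, with log2 fold changes of 0.75 to 0.94. The human genome holds the pseudogene copies ABCC6P1 and ABCC6P2 on chromosome 16, where ABCC6 also lies. Counting of reads shared with them is not described, and its value is therefore uncertain. A second counted row of ABCC6, the short NM_001079528.3, had 15.9 and 13.3 CPM in knockdown and 8.83 and 12.0 CPM in control cells (0.48 ± 0.28, adjusted p = 0.262).

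ABCC1 (MRP1), which exports glutathione conjugates and leukotriene C4 through the basolateral membrane, was the only ABC gene called lower. Its only counted row, for 1 of the gene's 12 RefSeq mRNA accessions, had 300.0 and 268 CPM in knockdown cells, against 426 and 459 CPM in control cells. Both knockdown libraries were below both controls. The means were 284 ± 22.5 CPM in knockdown and 442 ± 23.3 CPM in control cells (SD), and the log2 fold change was −0.64 ± 0.16 (adjusted p = 0.0125 by edgeR). It passed in 10 of 11 alternatives and failed once control replicate 2 was left out (−0.57, adjusted p = 0.111). Its adjusted p lay between 2.64e-05 and 0.111 in the alternatives.

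ABCC3 (MRP3), a basolateral pump for bile acids and glucuronides, had 25.6 and 22.4 CPM in knockdown and 37.2 and 37.1 CPM in control cells. Its log2 fold change of −0.63 ± 0.22 was close to that of ABCC1 and missed the threshold (adjusted p = 0.0584 by edgeR). It passed by DESeq2 (adjusted p = 0.0479), under a filter of 5 CPM in 2 libraries (adjusted p = 0.039) and in the authors' deposited table (q-value 0.011). ABCC10 had 3.90 and 3.67 CPM in knockdown and 3.34 and 2.04 CPM in control cells (0.49 ± 0.43, adjusted p = 0.484). ABCC5, an exporter of anionic conjugates, had a row of 22 counts in all and was not tested.

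**Figure D2:**
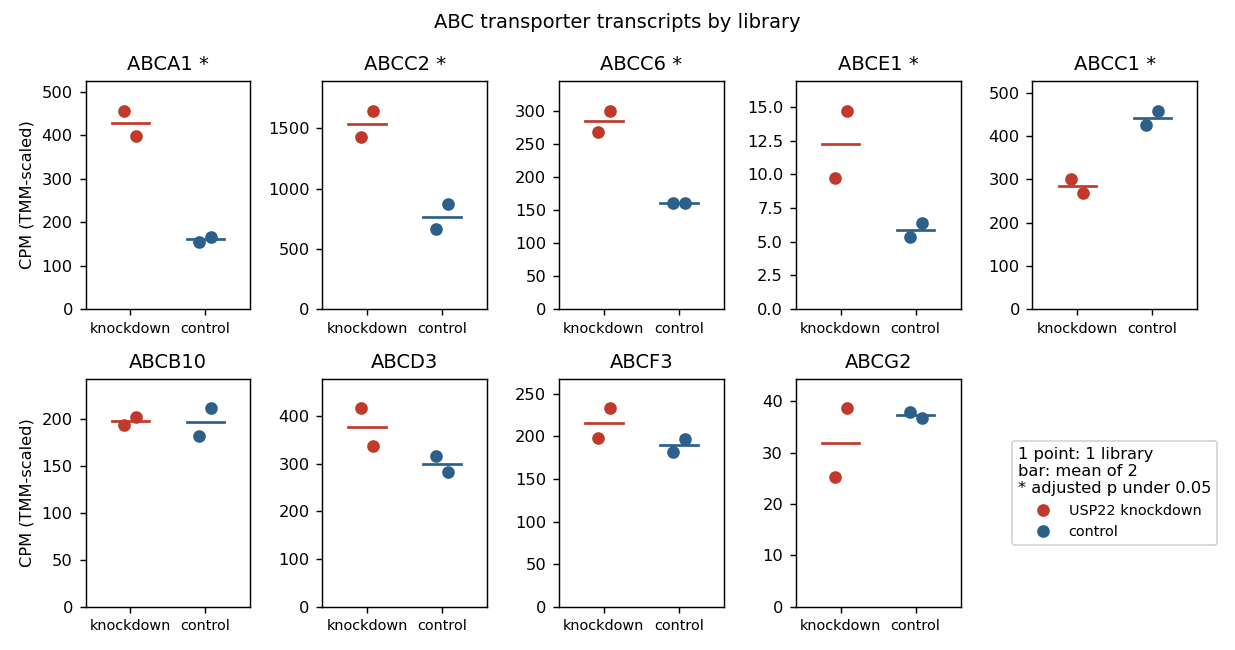
The panels show CPM per library for the 5 called ABC genes, marked with an asterisk, and for the member with the highest total count in each subfamily without a call, on linear axes from 0 with USP22 knockdown left and control right. Points are libraries and bars are means of 2: the groups are apart for the 5 called genes and for ABCD3 and ABCF3, while those of ABCB10 and ABCG2 overlap.

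Because ABCC2 and ABCC1 moved in opposite directions, their ratio was formed within each library on the per-length scale (CPM per kb of the transcript model). These pairs were chosen after their values were seen. The ratio of ABCC2 over ABCC1 was 5.36 and 6.93 in knockdown and 1.76 and 2.15 in control cells. That of ABCC2 over ABCC3 was 54.8 and 72.4 in knockdown and 17.6 and 23.2 in control cells. ABCA1 over ABCA7 was 1.29 and 1.26 in knockdown and 0.344 and 0.395 in control cells. So ABCA7 had the higher level per length in both control libraries, and ABCA1 in both knockdown libraries. The log2 changes of the 3 ratios were 1.65, 1.64 and 1.79. The groups could not overlap in any of the 3 ratios. Each ratio sets a gene with both knockdown libraries above both controls over a gene with both below. The separation of the ratios is therefore no further result. The smallest p that an exact two-sided permutation test allows with 2 against 2 libraries is 0.333.

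**Figure D3:**
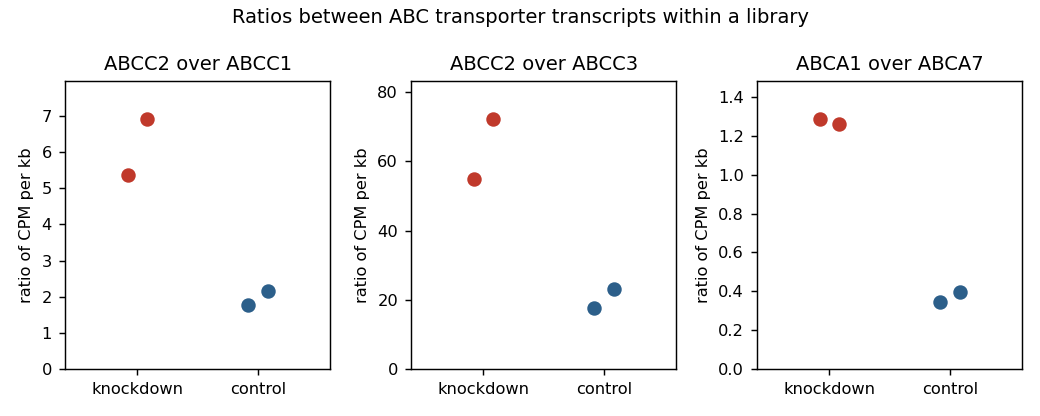
Each panel gives a ratio of CPM per kb between ABC genes within a library, with USP22 knockdown left, control right and 1 point per library, on linear axes from 0. ABCC2 over ABCC1 was 5.36 and 6.93 in knockdown against 1.76 and 2.15 in control cells, and ABCA1 over ABCA7 lay above 1 in knockdown and below 1 in control cells.

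ABCE1, the sole gene of subfamily E, splits ribosomes after termination so that they can be used again. Its row NM_002940.2 had 9.71 and 14.7 CPM in knockdown cells (147 and 253 counts), against 5.36 and 6.43 CPM in control cells (85 and 104 counts). The knockdown libraries lay above both controls but apart from each other. The log2 fold change was 1.05 ± 0.32 (adjusted p = 0.0355 by edgeR), a 2.07-fold increase. The call depended on single libraries. Leaving out control replicate 1 gave 0.93 (adjusted p = 0.124), and leaving out knockdown replicate 2 gave 0.73 (adjusted p = 0.255). Over the 11 alternatives the adjusted p lay between 0.0026 and 0.255. ABCE1 has 2 RefSeq mRNA accessions of which the table holds 1, and its gene overlaps ANAPC10 in the RefSeq table.

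The subfamily F genes, which also act in translation and not in transport, were all tested and none passed. ABCF1 had 35.6 and 35.7 CPM in knockdown and 24.3 and 30.9 CPM in control cells (0.37 ± 0.22, adjusted p = 0.272). ABCF3, whose counterpart in yeast acts beside GCN1 in the amino acid starvation response, had 198.5 and 233 CPM in knockdown and 181 and 197 CPM in control cells (0.19 ± 0.17, adjusted p = 0.481). ABCF2 had 48.0 and 58.1 CPM in knockdown and 44.6 and 50.8 CPM in control cells (0.15 ± 0.20, adjusted p = 0.654).

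In subfamily B no gene passed. ABCB1 (P-glycoprotein), the drug efflux pump, had 106 and 119 CPM in knockdown and 134 and 147 CPM in control cells. The groups did not overlap, and the log2 fold change was −0.32 ± 0.17 with a 95% interval from −0.69 to 0.04 (adjusted p = 0.215 by edgeR). ABCB10, a transporter of the mitochondrial inner membrane tied to haem synthesis, had 193 and 202 CPM in knockdown and 182 and 211 CPM in control cells. Its interval ran from −0.34 to 0.36 around 0.01, the narrowest bound on a change in the subfamily. ABCB6, a porphyrin transporter, had 8.19 and 11.4 CPM in knockdown and 10.9 and 12.7 CPM in control cells (−0.27 ± 0.29, adjusted p = 0.585). The row of ABCB8, of the mitochondrial inner membrane, had 9 to 15 counts per library and did not pass. ABCB11, the canalicular bile salt export pump, had 2 and 5 counts in knockdown and 17 and 8 counts in control cells and was not tested.

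Subfamily D transporters, which sit in peroxisomes except for the lysosomal ABCD4, were all tested and none passed by the row of highest count. ABCD3 (PMP70), which imports branched-chain acyl and bile acid intermediates, had 416 and 338 CPM in knockdown and 316 and 283.5 CPM in control cells (0.33 ± 0.17, adjusted p = 0.189). A second row of ABCD3, NM_001122674.1, held far fewer counts. It had 10.5 and 9.08 CPM in knockdown and 2.59 and 4.08 CPM in control cells, with 159 and 156 counts in knockdown and 41 and 66 counts in control cells. That row rose, with a log2 fold change of 1.55 ± 0.35 (adjusted p = 0.00829 by edgeR), and did so in all 10 alternatives that kept rows apart, with values of 1.27 to 1.93. Whether the rows differ from each other was not tested, and the second row was singled out after its values were seen. The transcript model of that row is 884 bases long, against 3538 for the row with most counts.

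ABCA3, ABCB10, ABCE1 and ABCF2 have pseudogene copies, and their values are uncertain to that extent. The copy of ABCA3 lies on the same chromosome 16, and a copy of ABCF2 on the same chromosome 7. ABCD2, a peroxisomal fatty acid importer, had 35 and 19 counts in knockdown and 40 and 12 counts in control cells, and ABCD4, which moves cobalamin out of lysosomes, had 48 and 44 counts in knockdown and 52 and 29 in control cells. Neither passed (adjusted p = 0.966 and 0.847).

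Subfamily G, which holds sterol and drug exporters, had 4 tested genes and no call. ABCG2 (BCRP), the urate and drug exporter, had 25.4 and 38.6 CPM in knockdown and 37.9 and 36.7 CPM in control cells. The knockdown libraries lay on either side of the controls (−0.22 ± 0.24, adjusted p = 0.577). ABCG5 and ABCG8, which form the sterol exporter of the canalicular membrane, were barely counted. ABCG5 had 3 and 13 counts in knockdown and 0 and 16 counts in control cells. ABCG8 had 10 and 10 counts in knockdown and 10 and 2 counts in control cells. Each held 32 counts over all libraries and neither passed, with wide 95% intervals of −2.62 to 2.55 for ABCG5 and −1.32 to 2.74 for ABCG8. ABCG4 had 3 and 15 counts in knockdown and 29 and 5 counts in control cells and did not pass (adjusted p = 0.541). ABCG1, a sterol exporter to high-density lipoprotein that shares its regulators with ABCA1, had 11 and 7 counts in knockdown and 7 and 7 in control cells and was not tested.

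The levels per length ordered the family alike in both groups at the top. ABCC2 ranked first with 265 CPM per kb in knockdown and 132 CPM per kb in control cells. ABCD3 followed with 107 CPM per kb in knockdown and 84.7 CPM per kb in control cells, and then ABCF3 with 82.2 CPM per kb in knockdown and 72.1 CPM per kb in control cells. Libraries of these neighbours in the order did not overlap in control cells, where ABCD3 had 89.2 and 80.1 and ABCF3 69.0 and 75.2 CPM per kb. ABCC1 ranked 7 in knockdown and 4 in control cells, ABCC6 ranked 5 in knockdown and 9 in control cells, and ABCA1 ranked 8 in knockdown and 10 in control cells. At the low end, 11 of the 35 genes had under 100 counts over the 4 libraries.

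**Figure D4:**
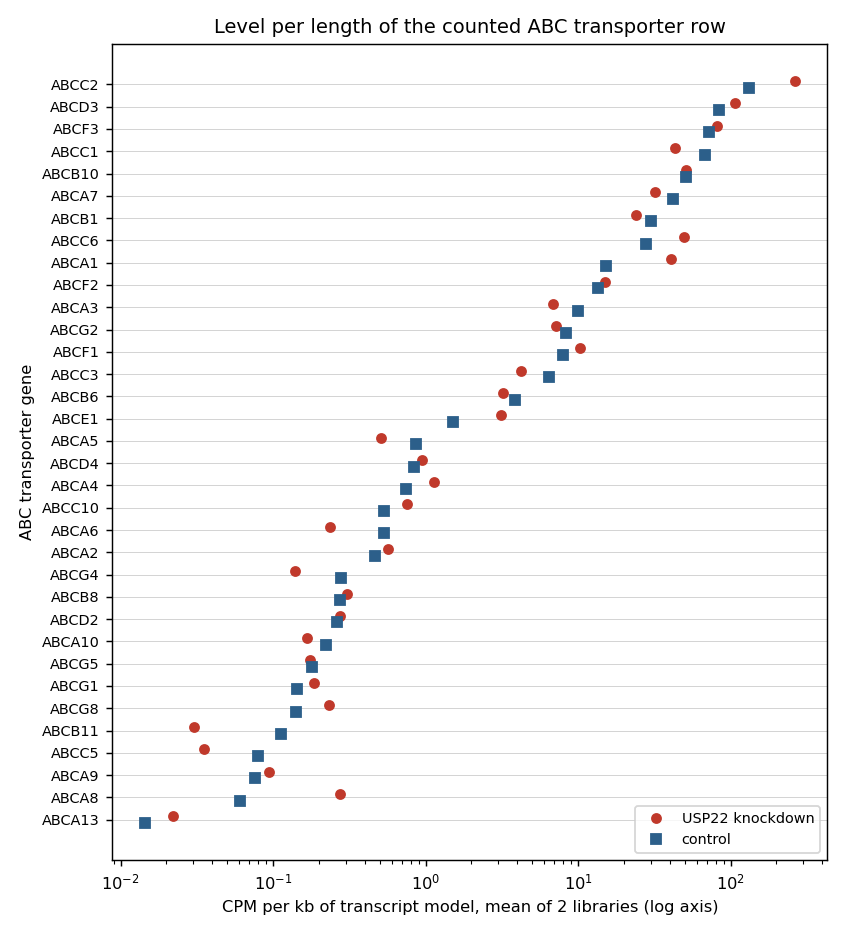
The plot gives the level per length (CPM per kb of transcript model, log axis, mean of 2 libraries) of the counted row of the ABC genes reported here, ordered from top by the level in control cells, with circles for USP22 knockdown and squares for control. ABCC2 is highest in both groups, at 265 CPM per kb in knockdown and 132 CPM per kb in control cells, and circle and square are furthest apart, among genes with at least 1000 counts, for ABCA1.

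These levels are those of rows, not of genes. The 11 ABC genes with 1 RefSeq mRNA accession had a median of 3253 counts over the 4 libraries, and the 24 with more accessions a median of 365. Summed over the 35 rows, ABC genes took 0.401% and 0.414% of all counts in knockdown and 0.301% and 0.315% in control cells. Subfamily C made up most of this difference in sums, with 2023 and 2242 CPM in knockdown and 1293 and 1531 CPM in control cells. Subfamily A summed to 748 and 677 CPM in knockdown and 552 and 512 CPM in control cells, while subfamily B summed to 309 and 333 CPM in knockdown and 329 and 372 CPM in control cells. Within these sums ABCC2 averaged 1536 CPM in knockdown and 769 CPM in control cells, and ABCA1 428 and 161 CPM. Without ABCC2 and ABCA1, subfamilies C and A each summed lower in knockdown than in control cells. The higher sums are thus those of ABCC2 and ABCA1 and not of the family at large.

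The ABC superfamily also holds genes with other symbols. CFTR, a chloride channel of this family, rose to 33.0 and 36.8 CPM in knockdown cells, against 7.89 and 10.1 CPM in control cells (1.96 ± 0.25, adjusted p = 0.000192 by edgeR). TAP1, which carries peptides into the endoplasmic reticulum for class I presentation, had 16.5 and 17.5 CPM in knockdown and 32.7 and 24.1 CPM in control cells (−0.74, adjusted p = 0.0499). That call ended with DESeq2 size factors (adjusted p = 0.0522), limma-voom (0.0514), no count filter (0.0601) and without control replicate 1 (0.397), knockdown replicate 1 (0.0992) or knockdown replicate 2 (0.0547). TAP2, its partner subunit, averaged 1.19 CPM in knockdown and 0.529 CPM in control cells and did not pass (adjusted p = 0.332). Of 10 tested peptide loading genes that work with TAP, 3 fell and 0 rose (11.1% and 9.08% over all genes), with a median log2 fold change of −0.62. Among those that passed, the largest decrease was that of HLA-B, with 112 and 105 CPM in knockdown and 268 and 238.5 CPM in control cells (−1.22, adjusted p = 0.000301). Counts of such polymorphic, similar genes are uncertain.

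Partner genes of the ABC members were read against the shares over all genes, of which 9.08% were called higher and 11.1% lower. The first are partners of the peroxisomal members. Among the 9 tested the median log2 fold change was 0.52, with 4 genes higher, 1 lower and 4 not past the threshold. ACOX2, the branched-chain acyl-CoA oxidase that acts on bile acid intermediates, had 75.1 and 103 CPM in knockdown and 22.3 and 26.1 CPM in control cells (1.88, adjusted p = 0.000101 by edgeR). SLC27A2, an acyl-CoA synthetase and fatty acid transporter, had 4.10 and 5.76 CPM in knockdown and 1.58 and 1.98 CPM in control cells (1.47, adjusted p = 0.0308, lost without control replicate 1 at 0.0849 and without knockdown replicate 2 at 0.213). PEX14, of the import machinery, and catalase (CAT) also rose, by 1.16 and 0.95 on the log2 scale, and were named after their values were seen. PEX3, the docking receptor for peroxisomal membrane proteins, fell to 99.3 and 82.6 CPM in knockdown cells, against 158.5 and 149 CPM in control cells (−0.76, adjusted p = 0.00872). PEX3 missed the threshold with control replicate 1 left out (0.0634). Among 3 tested partners of ABCD4, TCN2, the blood carrier of cobalamin, fell to 11 and 10 counts in knockdown cells, against 60 and 55 counts in control cells (−2.45, adjusted p = 0.00722).

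Of 12 tested genes of cholesterol and phospholipid efflux that work with ABCA1 and its relatives, 0 rose and 3 fell (LCAT, NPC2 and NPC1). The other 9 missed the threshold, and the median log2 fold change was 0.05. LCAT, which esterifies cholesterol on high-density lipoprotein, had 3.37 and 6.87 CPM in knockdown and 13.2 and 14.2 CPM in control cells (−1.41, adjusted p = 0.0131 by edgeR, and −0.96 with 0.0524 without knockdown replicate 1). NPC2, the lysosomal cholesterol carrier, had 196 and 227 CPM in knockdown and 313 and 320 CPM in control cells (−0.58, adjusted p = 0.0232). NPC2 missed the threshold with either control library or knockdown replicate 1 left out, at adjusted p-values of 0.0786 to 0.138. NPC1, its partner in lysosomal cholesterol export, had a log2 fold change of −0.50 (adjusted p = 0.0349) and missed the threshold without control replicate 1 (0.223), control replicate 2 (0.157) or knockdown replicate 2 (0.051). APOA1, the acceptor of ABCA1, did not pass at 20.3 CPM in knockdown and 22.0 CPM in control cells, and it was named after its value was seen.

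Of 11 tested regulators of ABC genes, 1 rose and 10 did not pass. NR1H4 (FXR), the bile acid receptor, had 11 and 18 counts in knockdown and 0 and 2 counts in control cells (adjusted p = 0.0428 by edgeR, 0.0923 by DESeq2). It did not pass without the count filter (0.079), without control replicate 1 (0.241) or without knockdown replicate 1 (0.181). The liver X receptors NR1H2 and NR1H3, which drive ABCA1 transcription in response to oxysterols, did not pass (adjusted p = 0.156 and 0.732). NR1H2 was lower in both knockdown libraries, with 31.1 and 40.55 CPM against 51.6 and 46.8 CPM in control cells (−0.46 ± 0.21). NR1H3 had 14 and 14 counts in knockdown and 11 and 9 counts in control cells. Its only counted row is for 1 of the gene's 8 RefSeq mRNA accessions. With so few counts, its log2 fold change of 0.47 ± 0.77 cannot show whether NR1H3 changed. EPAS1, an alpha subunit of the hypoxia-inducible factors, did not pass either (−0.45, adjusted p = 0.053). These 3 genes were named after their values were seen.

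Of 7 tested solute and bile acid transporters of other families, 2 rose, 1 fell and 4 did not pass. ATP8B1, a canalicular phospholipid flippase, had 209 and 174 CPM in knockdown and 117 and 112 CPM in control cells (0.74, adjusted p = 0.00841 by edgeR, and 0.0516 without control replicate 2). SLCO1B1, a hepatocyte uptake carrier for conjugates, had 4.23 and 9.31 CPM in knockdown and 2.78 and 2.66 CPM in control cells (1.32, adjusted p = 0.047). It did not pass without knockdown replicate 2 (0.65, adjusted p = 0.534), without control replicate 2 (0.0535), by DESeq2 (0.0511) or by limma-voom (0.0713). SLC51A, a subunit of the basolateral bile acid exporter, had 5.55 and 3.32 CPM in knockdown and 10.6 and 19.5 CPM in control cells (−1.77, adjusted p = 0.00528). SLC51B, the other subunit, lay the other way and did not pass (0.49 ± 0.17, adjusted p = 0.0677 by edgeR). It had 111 and 129.8 CPM in knockdown and 87.25 and 84.15 CPM in control cells, and was named after its values were seen.

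Of 10 tested partners of ABCE1 and the F subfamily in ribosome recycling and initiation, 2 rose and 8 did not pass. EIF5B, which joins ribosomal subunits, had 652 and 604 CPM in knockdown and 443 and 378 CPM in control cells (0.61, adjusted p = 0.0159 by edgeR, and 0.154 without control replicate 2). GCN1 had 1229 and 1176 CPM in knockdown and 839.8 and 874 CPM in control cells (0.49, adjusted p = 0.0321), which missed the threshold with control replicate 1 (0.214) or 2 (0.12) left out. Of 8 tested iron-sulfur and haem genes that work beside the mitochondrial B members none passed. CPOX had 131 and 136 CPM in knockdown and 148 and 150 CPM in control cells, and GLRX5 had 144 and 166 CPM in knockdown and 111 and 110 CPM in control cells. KCNJ11, the pore that pairs with sulfonylurea receptors of subfamily C, did not pass (−0.88, adjusted p = 0.316).

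Of the 10 hepatocyte markers 5 rose and 0 fell beside the increases of ABCC2 and ABCC6. These were AFP, APOA2, FGB, CPS1 and KRT18. CPS1, of the urea cycle, had a log2 fold change of 1.47 and FGB, a fibrinogen chain, one of 1.19. The values of TTR (−0.61), TF (−0.18), ALB (−0.18) and SERPINA1 (−0.10) were below 0 and did not pass. HNF4A did not pass either (2.73 ± 0.93, adjusted p = 0.0584 by edgeR). Its only counted row, for 1 of the gene's 10 RefSeq mRNA accessions, was near the limit of detection. It had 23 and 18 counts in knockdown and 1 and 5 counts in control cells. Over all genes 9.08% were called higher and 11.1% lower. Among the 6 tested markers of other cell types, the endothelial marker PECAM1 rose (1.02, adjusted p = 0.0185 by edgeR). The biliary and epithelial markers KRT7 and EPCAM fell (−1.54 and −2.25, adjusted p = 0.0266 and 0.0352 by edgeR). KRT7 had 57 and 28 counts in knockdown and 96 and 155 counts in control cells. EPCAM had 11 and 7 counts in knockdown and 25 and 62 counts in control cells. The calls of these markers were not tried under the alternative settings. The endothelial markers VWF and LYVE1 were too low to be tested and lay the other way from PECAM1. VWF had 0 and 2 counts in knockdown and 7 and 9 counts in control cells. LYVE1 had 0 and 1 counts in knockdown and 8 and 13 counts in control cells. The part of all these markers in the ABC values was not tested.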

How the data were processed

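The authors deposited 1 table of raw counts per RefSeq mRNA accession for 4 libraries, and beside them their own log2 fold change with its p-value and its q-value, knockdown over control. Per the submitters' processing notes, HISAT2 2.1.0, HTSeq and bcl2fastq were used with hg19. The sources used here do not give the counting settings or the tool behind the authors' p-values. Per the labels' protocols, libraries were made with NEBNext Ultra RNA, a kit that does not mark strand, so reads of overlapping or antisense genes cannot be told apart. Libraries were grouped by their sample titles (NC or shUSP22).

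The whole table was tested with edgeR 4.0.16 (R 4.3.3; filterByExpr with a minimum count of 10, TMM, glmQLFit and glmQLFTest, no covariate), which kept 12337 of 14540 rows. Adjusted p-values are Benjamini-Hochberg values over all these rows, with calls below 0.05. The SE is the size of the log2 fold change over the square root of F. Code was tested on simulated data. Lengths came from GENCODE models and accession numbers from RefSeq (GRCh38.p14), both found for 35 of 35 ABC genes. The alternatives were DESeq2 1.42.0 (test or size factors), limma-voom 3.58.1, other filters, rows summed per gene, the replicate number as a block and each library left out. Values of 1 ABC gene and 1 partner gene, which the counts include, are not reported here. Named were the other ABC genes and, per partner list, the 2 largest changes past the threshold in each direction or else the 2 highest means. The members and lists were chosen with earlier results of these data known.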

Additional observations from a re-analysis of the deposited data

How the results depend on the processing

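ABCA1, ABCC2 and ABCC6 passed under all 11 alternatives, with log2 fold changes of 1.35 to 1.51, 0.82 to 1.23 and 0.75 to 0.94. Leaving out a library gave 3 to 5 ABC genes higher and 1 to 2 lower, against 4 and 1 with all libraries. Without control replicate 2, ABCC1 was lost, ABCA3 and ABCA5 were called lower and ABCA8 higher. The number lower was 2 under the filter of 5 CPM and by DESeq2, where ABCC3 was added. Over all rows, 685 to 1340 were called higher without a library, against 1047, and of 77 partner genes 6 to 11 were called lower, against 10. The causes of these differences were not tested.

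With the replicate number as a block, 4 ABC genes were lower (ABCC1 with ABCA3, ABCA7 and ABCC3) and 5 higher (with ABCA8), 1672 rows were called higher and 19 partner genes lower. The correlation of replicate differences between the groups was 0.112 over 12337 rows, and with 2 pairs the numbers do not show that samples were paired.

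Of the 31 tested ABC genes 21 kept their sign in every alternative. The sign of ABCG5 turned under the block (0.46) and limma-voom (1.28), and that of ABCB10 under the filter of 5 CPM (−0.0074). With a library left out, signs also turned for ABCA2 (−0.048 to 0.57), ABCA9 (−0.67 to 6.33), ABCB10 (−0.090 to 0.14), ABCB8 (−0.35 to 0.53), ABCD2 (−0.55 to 1.19), ABCD4 (−0.18 to 0.68), ABCG2 (−0.55 to 0.09), ABCG4 (−2.37 to 0.80), ABCG5 (−1.28 to 5.99) and ABCG8 (−0.0058 to 2.26), none of which was called with all libraries. The SE was 0.157 to 0.236 for the 15 tested ABC genes with at least 1000 counts and 0.292 to 1.20 for the 16 below. Of those 16, 1 was called (ABCE1).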
